A study of Mus musculus with 4 samples.

Results

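The extracellular matrix of mouse fibroblasts is described here by the genes for collagens, laminins, fibulins, fibrillins, elastin, fibronectin, SPARC, lysyl oxidase, matrix metalloproteinases, their tissue inhibitors (Timps) and integrins. Members were chosen by gene symbol alone, by a rule set with earlier results of these data known. They were all probe sets, the groups of short oligonucleotides that report 1 transcript each, whose single annotated symbol begins with that of 1 of these families. This gave 89 probe sets of 70 genes, out of 13057 probe sets that were not controls and 6137 named genes. The symbol rule also takes in Itgb1bp1, which encodes an integrin-binding protein and is no integrin chain.

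RNA came from NIH3T3 cells, which are immortalised mouse fibroblasts, stably carrying a wild-type PKR gene whose promoter tetracycline represses. PKR is a kinase that slows translation initiation when double-stranded RNA activates it. In the first condition the cells grew with 1 µg/ml tetracycline and 5% fetal calf serum. In the other, tetracycline was withdrawn for 5 h to induce PKR, and the labels give no serum content for these cultures. Each condition was hybridised to 1 array of each of 2 types, the second marked MB, so that 4 arrays were measured in all. All groups share the transgenic line, and whether it is 1 clone is not given. The arrays of a condition carry different probe sets and are not replicates. No difference therefore has a replicate check, no p-value was computed, and the number of arrays limits the precision.

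Fibroblasts build the matrix around them. Fibrillar collagens are secreted as triple helices that assemble into the fibrils of connective tissue, and lysyl oxidase crosslinks them. Laminins and type IV collagen form the basement membrane, elastin with fibrillins and fibulins forms elastic fibres, metalloproteinases cut these proteins, Timps block metalloproteinases, and integrins are the receptors that hold the cell to them.

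Values are the deposited intensities, in arbitrary linear units, and changes are the log2 ratio of withdrawn to tetracycline. A probe set was taken as measured when both intensities exceeded a control floor, the 95th percentile of 39 bacterial and yeast control probe sets (281.5 for the first type, 340.4 for MB). A difference of at least 2-fold between measured values was counted. As a yardstick, the spread quoted beside some changes is a scaled median absolute deviation, taken over changes at the 200 measured probe sets closest in intensity. The spread is centred on their median change, which was not subtracted from the changes beside it unless stated. Since real differences add to it, it does not stand for an error between replicates. Of the 89 probe sets, 50 were measured, 13 exceeded the floor on 1 array only and 26 were below it on both. Of all probe sets that were not controls, 54.5% were measured on the first type and 41.9% on MB. The single Eif2ak2 probe set, for the mouse PKR gene, read 643.3 and 663.6. Whether this mouse probe set detects the transgene is unknown, since the species of the transgene is not given, and induction could not be checked with it. The 3' over 5' intensity of the actin and Gapdh controls, which climbs as RNA degrades, was 0.711 to 1.05 over the 4 arrays.

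After tetracycline withdrawal most measured matrix probe sets read slightly lower, and hardly any differed by 2-fold. On the first type, 17 of 23 measured members were lower, with a median change of -0.19. On the MB type, 20 of 27 were lower, with a median of -0.25. With each gene taken once, at the median of its measured probe sets, 14 of 19 and 16 of 23 were lower (medians -0.16 and -0.20). Over all measured probe sets the medians were -0.011 and 0.0092, with 51.2% and 48.8% lower. Past 2-fold there was 1 member higher on the first type, elastin, where 1.88% of all measured probe sets were higher, and 1 lower, Itgb1bp1, where 1.29% were lower. On the MB type no member passed 2-fold in either direction, against 1.97% of all measured probe sets higher and 0.767% lower. The number of members past 2-fold was thus near that background. Changes of the size of these medians were smaller than the spread around every measured member with both intensities under 5000.

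**Figure D1:**
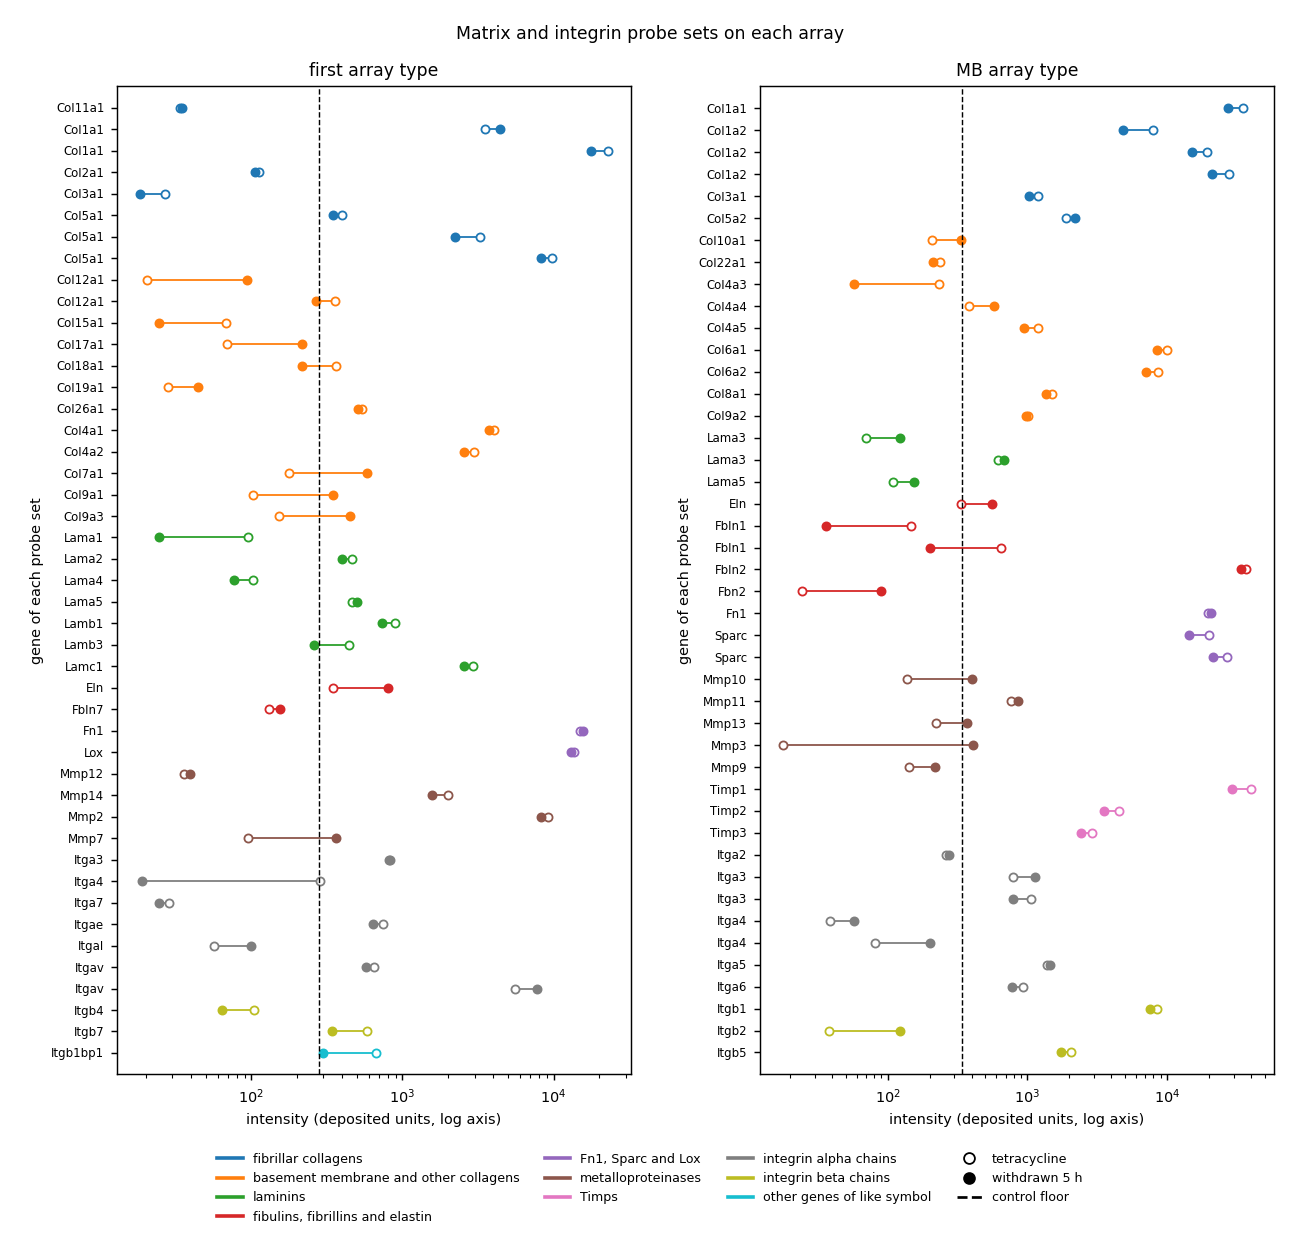
Intensities of all 89 probe sets on the first (left) and MB (right) array type, on a log axis, with open circles for tetracycline, filled circles for withdrawal and the control floor as a dashed line. Most bright members shift slightly to the left, and large shifts such as those of Mmp3 and Itga4 occur where 1 value lies below the floor.

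The fibrillar collagens were lower in 9 of 11 measured probe sets. Col1a2, which encodes the alpha 2 chain of type I collagen, was lower on all its 3 probe sets, all on the MB type. They read 27924.4, 19447.9 and 7991 with tetracycline and 20951.6, 14997.4 and 4871.2 after withdrawal. Their changes were -0.41, -0.37 and -0.71, where the spread was 0.19, 0.21 and 0.29. Each of these changes exceeded the spread. Probe sets of their intensity had median changes of only -0.12, -0.13 and -0.058.

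Col1a1, which encodes the main chain of type I collagen, differed between its probe sets. The probe sets built on 1 sequence record read 22899.4 and 17812.6 on the first type, and 34944.4 and 27204.9 on MB arrays, a change of -0.36 on both. The change exceeded the spread of 0.20 and 0.18. Less the median change of probe sets of their intensity, it was -0.20 and -0.25, which on the first type only just exceeds the spread. The other Col1a1 probe set, built on an expressed sequence tag, was higher, from 3495.4 to 4393.9 (0.33, spread 0.28). Names of all 3 carry the suffix that Affymetrix gives to probes shared by a sequence family, so related sequences can contribute to each. The same holds for the Fn1 and Sparc probe sets and for all Col1a2 probe sets but the dimmest.

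Col5a1, which encodes a minor fibril chain that controls fibril diameter, was lower on all its 3 probe sets on the first type. They read 9787 and 8281.3, 3285.3 and 2242.1, and 397.3 and 347.7, changes of -0.24, -0.55 and -0.19. Of these the change of -0.55 exceeded its spread of 0.32. Its partner Col5a2, on the MB type, was slightly higher, from 1888.1 to 2180.2 (0.21, spread 0.32). Col3a1, which encodes type III collagen, read 1184.3 and 1032.8 on the MB type (-0.20, spread 0.43). On the first type its probe set read 26.9 and 18.4, below the floor, as did those of the cartilage collagens Col2a1 (112.5 and 105.6) and Col11a1 (33.7 and 34.5). Median changes of the measured fibrillar collagens were -0.24 for the first type, -0.37 for MB.

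Among basement membrane and other collagens, 8 of 9 measured probe sets were lower, all by small amounts. The main type IV chains of most basement membranes, Col4a1 and Col4a2, read 4009 and 2993.2 with tetracycline and 3744.8 and 2554.8 after withdrawal (-0.098 and -0.23). Col6a1 and Col6a2, which encode chains of the microfibrillar type VI collagen, read 9980.2 and 8625.9 with tetracycline and 8416.5 and 7057.4 after withdrawal (-0.25 and -0.29). Both type VI changes lay close to their spread of 0.28. Less the median change of probe sets of their intensity, they were -0.14 and -0.18, well within it. Col4a5, a type IV chain of kidney and other basement membranes, was lower from 1188.6 to 944.3 (-0.33), and its partner Col4a4 higher from 380 to 579.7 (0.61, spread 0.44). The other measured ones were Col8a1 (-0.13), Col26a1 (-0.084) and Col9a2 (-0.036). Class medians were -0.098 on the first type, which turned to 0.28 without a floor, and -0.19 on the MB type.

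Collagens near the floor differed in both directions. Col7a1, which encodes the anchoring fibril collagen of skin, read 177.6 with tetracycline and 581.2 after withdrawal. Set against the floor this is a difference of at least 2.06-fold, and no other member had such a bound of 2-fold. Of all first-type probe sets above the floor only after withdrawal, 12.8% had a bound that large. Col9a1 (101.7 to 345.1) and Col9a3 (153.1 to 452.3), chains of the cartilage collagen type IX, also exceeded the floor only after withdrawal, by at least 1.23-fold and 1.61-fold. Col18a1 (361.5 to 217.5) and a probe set of Col12a1 (359.2 to 268.3) did so only with tetracycline. The remaining type IX chain, Col9a2, was measured on the MB type and read 1007.3 and 982.2.

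**Figure D2:**
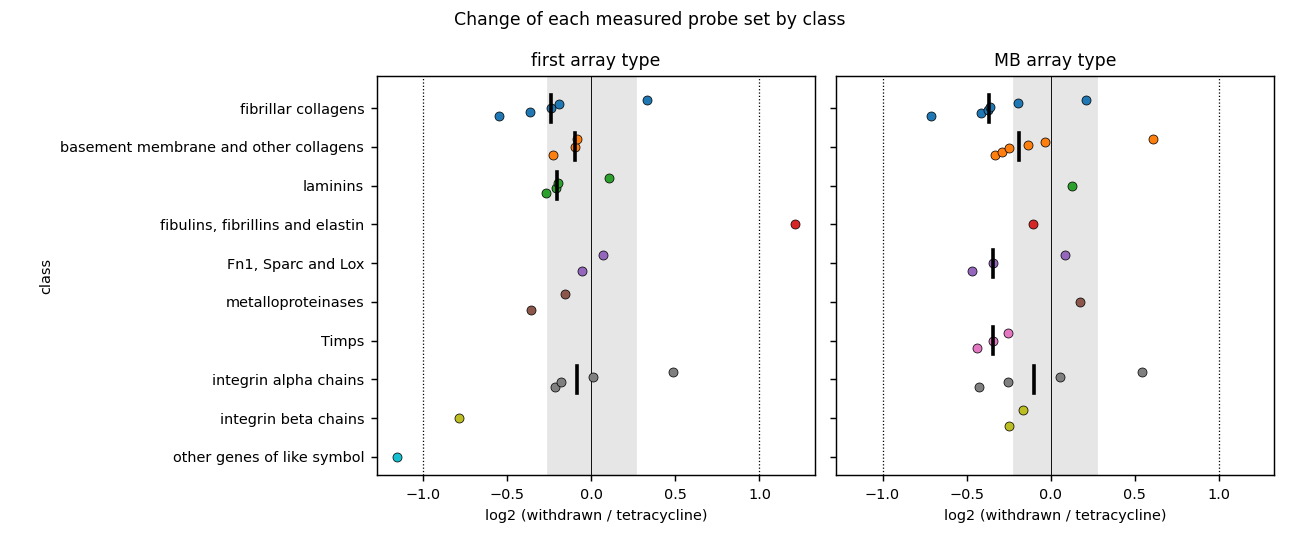
Log2 change of each measured probe set by class on the first (left) and MB (right) array type, with bars for class medians of at least 3 probe sets, a grey band for the middle 50% of all measured probe sets and dotted lines at 2-fold. The median bars lie to the left of 0, and elastin and Itgb1bp1 are the points past a dotted line.

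Laminins, the heterotrimers of the basement membrane, were lower in 3 of 5 measured probe sets. On the first type Lamb1 read 888.3 and 737, Lamc1 2939.7 and 2563.5, and Lama2 461.7 and 399.6, changes of -0.27, -0.20 and -0.21. Lama5 was slightly higher on the first type (463.7 to 498.9, 0.11) and below the floor on the MB type (109.8 and 154.5). Lama3 gave 618.7 and 676.4 on 1 MB probe set (0.13) and 69.7 and 123 on another, below the floor. Lamb3, a chain of the epithelial laminin, exceeded the floor only with tetracycline (439.9 to 259.2). None of the measured laminin changes exceeded its spread. Lama1 and Lama4 were below the floor on both arrays.

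Of the elastic fibre genes, elastin itself stood out. Eln read 348.3 with tetracycline and 805.4 after withdrawal on the first type, 2.31-fold higher (1.21, spread 0.64). On the MB type a different Eln probe set read 336.2, just under the floor, and 556.1, at least 1.63-fold higher. Both array types thus gave the same direction for elastin, from tetracycline values close to the floor. With a floor 2 times as high, neither Eln probe set was measured and the 2-fold difference was no longer counted. Fbln1, a fibulin that binds elastin and fibronectin, read 643.1 and 201.9 on 1 MB probe set, at least 1.89-fold lower against the floor. Its other MB probe set read 146 and 35.9, both below the floor, and gives no direction. Fbln2 read 36755.3 and 34114.5 (-0.11). Its direction turned after quantile normalization (0.031) or removal of the trend of change on level (0.032). Fbn2, which encodes a fibrillin, and Fbln7 were below the floor on both arrays.

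Fibronectin, the adhesive glycoprotein that integrins bind, hardly differed. Fn1 read 14887.1 and 15602.1 on first-type arrays, and 19623.9 and 20804.5 on MB arrays, changes of 0.068 and 0.084. Both are smaller than their spread of 0.22 and 0.20. Less the median change of probe sets of their intensity, both were 0.21, which on the MB type just exceeds the spread. Sparc, which encodes a collagen-binding glycoprotein, was lower on both its MB probe sets, from 27082.1 to 21375.7 and from 19970.1 to 14411.4. Its changes of -0.34 and -0.47 exceeded the spread of 0.19 and 0.21. Lox, the lysyl oxidase gene, read 13688.1 and 13157 on the first type (-0.057), a direction that turned after quantile normalization (0.075) or removal of that trend (0.052).

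Of the 9 metalloproteinase probe sets 3 were measured, and these differed little. Mmp2, which encodes gelatinase A, read 9206.2 and 8266.2 (-0.16), Mmp14, which encodes the membrane-bound activator of that enzyme, 2014.3 and 1571.3 (-0.36), and Mmp11, which encodes stromelysin 3, 757.6 and 854.3 (0.17). None of these changes exceeded its spread, of 0.29, 0.38 and 0.44. The other 6 were below the floor with tetracycline, and 4 of them were above it after withdrawal.

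Those 4 were Mmp3 and Mmp10, which encode stromelysins 1 and 2, Mmp13, the interstitial collagenase of mice, and Mmp7, which encodes matrilysin. Mmp3 read 17.8 with tetracycline and 405.6 after withdrawal. Mmp10 read 136.9 and 398.5, Mmp13 221.3 and 366.5, all on the MB type, and Mmp7 95.4 and 365.4 on the first type. All withdrawn values lay only just above the floor, so the differences are at least 1.19-fold, 1.17-fold, 1.08-fold and 1.30-fold. The gelatinase B gene Mmp9 stayed below the floor (142.6 and 217.5), and Mmp12, the macrophage elastase gene, read 35.7 and 39.4.

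Of all probe sets below the floor with tetracycline, 15.7% were above it after withdrawal on the first type, and 12.7% for MB. For the metalloproteinases the counts were 1 of 2 and 3 of 4, and for all members 4 of 18 and 4 of 16. In the other direction 4 of 27 first-type members and 1 of 28 MB members were above the floor only with tetracycline, against 11.6% and 10.9% of all probe sets. Of bacterial and yeast controls below the floor with tetracycline, 2 of 73 were above it after withdrawal. Among these, the bacterial BioDn 3' control on the MB type went from 263.8 to 1212.8. Of the 5 controls above the floor with tetracycline, 4 were below it after withdrawal. The floor is itself a high percentile of these controls, so few of them can exceed it. Their counts therefore do not measure how often other probe sets cross the floor by chance. Mmp3 and Mmp10 are close relatives, and whether their probes share signal was not tested.

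The genes of these 4 metalloproteinases lie in 1 cluster on chromosome 9 with Mmp12 and 5 other metalloproteinase genes, by the RefSeq gene order of GRCm38.p6. The promoters of the 4 are shown because these genes were above the floor only after withdrawal, and that of Mmp14 as a metalloproteinase gene elsewhere in the genome. All were picked after their values were seen, so what the windows share supports nothing about the intensities. The promoter table of RefSeq on GRCm38.p6 held 46 of the 70 member genes. Each line gives the 250 bases before the annotated start, 5' to 3' on the plus strand. They are chr9:7445572-7445821 for Mmp3, chr9:7502092-7502341 for Mmp10, chr9:7272264-7272513 for Mmp13, chr9:7691840-7692089 for the first of 2 annotated starts of Mmp7 and chr14:54431348-54431597 for Mmp14. Capitals mark matches to TGANTCA, the motif that the transcription factor AP-1 binds, and to TATAAA, the TATA box. Both strands were searched, and no match of 1 motif overlapped the other.
Mmp3: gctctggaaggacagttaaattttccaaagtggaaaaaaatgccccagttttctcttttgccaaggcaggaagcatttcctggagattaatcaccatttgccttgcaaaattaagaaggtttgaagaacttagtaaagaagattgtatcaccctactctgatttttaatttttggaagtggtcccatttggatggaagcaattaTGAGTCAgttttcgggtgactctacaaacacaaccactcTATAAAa
Mmp10: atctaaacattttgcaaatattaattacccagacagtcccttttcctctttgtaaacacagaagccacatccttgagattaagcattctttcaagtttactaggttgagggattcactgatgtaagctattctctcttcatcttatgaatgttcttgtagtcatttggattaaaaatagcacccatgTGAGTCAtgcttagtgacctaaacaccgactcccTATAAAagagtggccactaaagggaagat
Mmp13: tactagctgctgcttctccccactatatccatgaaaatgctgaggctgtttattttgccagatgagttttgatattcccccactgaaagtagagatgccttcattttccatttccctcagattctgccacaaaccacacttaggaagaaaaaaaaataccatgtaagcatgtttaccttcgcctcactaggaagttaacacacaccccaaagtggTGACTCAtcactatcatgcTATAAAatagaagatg
Mmp7: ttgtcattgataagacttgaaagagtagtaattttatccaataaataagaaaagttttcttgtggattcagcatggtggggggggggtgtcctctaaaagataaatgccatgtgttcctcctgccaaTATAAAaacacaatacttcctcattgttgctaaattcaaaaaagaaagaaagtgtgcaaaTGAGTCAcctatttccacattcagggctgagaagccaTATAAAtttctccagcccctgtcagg
Mmp14: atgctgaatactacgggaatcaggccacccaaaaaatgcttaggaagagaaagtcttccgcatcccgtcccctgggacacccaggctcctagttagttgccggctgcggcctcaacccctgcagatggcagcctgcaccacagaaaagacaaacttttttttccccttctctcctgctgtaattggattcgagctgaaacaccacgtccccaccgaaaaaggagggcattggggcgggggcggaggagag

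All 4 printed cluster windows hold an AP-1 match. Its first base is 46 bases before the start in Mmp3, 63 in Mmp10 and in Mmp7, and 35 in Mmp13. All 4 also hold a TATA match, whose first base is 7 bases before the start in Mmp3, 29 in Mmp10 and 16 in Mmp13. In Mmp7 TATA matches begin 123 and 26 bases before it. The window of the other annotated start of Mmp7 holds neither motif. The downstream annotated start of Mmp12, the cluster gene that stayed near background, also has an AP-1 match, 44 bases upstream, and its upstream start has none. The 7 metalloproteinase genes in the promoter table have 9 windows, of which 5, each of a different gene, hold an AP-1 match. Of the 45 windows of other members 1 does, that of Col6a1, and of all 32851 windows of 250 bases 6.75% do. A TATA match is in 4 of the 9 metalloproteinase windows and 3 of the 45 others, against 12.4% of all windows. Neither motif is in the Mmp14 window. A match describes the letters only.

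**Figure D3:**
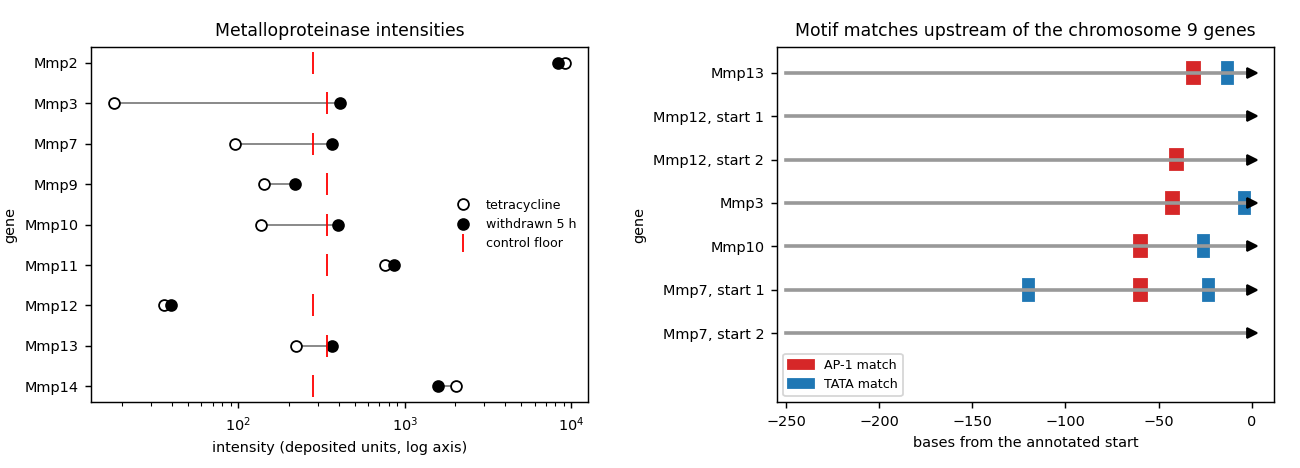
Left, intensities of the 9 metalloproteinase probe sets on a log axis, with open circles for tetracycline, filled circles for withdrawal and red ticks for the control floor of the array type. Right, AP-1 (red) and TATA (blue) matches in the 250 bases before each annotated start of the chromosome 9 genes, whose withdrawn values at left lie just right of the tick for Mmp3, Mmp7, Mmp10 and Mmp13 and far left of it for Mmp12.

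The inhibitors of these enzymes were all measured, on the MB type, and all read lower. Timp1, a secreted inhibitor induced by growth factors, read 39761.4 and 29387.9 (-0.44), Timp2 4518.5 and 3565.1 (-0.34), and the matrix-bound Timp3 2905.5 and 2439.6 (-0.25). The spread was 0.18, 0.29 and 0.33, so that the Timp1 and Timp2 changes exceeded it and the Timp3 change did not. Less the median change of probe sets of its intensity, the Timp2 change was -0.28 and did not exceed its spread. The Timp median of -0.34 remained negative under each scaling tried, between -0.28 and -0.40.

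Integrin alpha chains, which determine what an integrin binds, were evenly divided, with 4 of 8 measured probe sets lower. Itgav, the chain of vitronectin receptors, was higher on 1 first-type probe set (5565.8 to 7787, 0.48, spread 0.30) and slightly lower on another (647.6 to 570.8, -0.18). Itga3, a laminin receptor chain, gave -0.43 (1060.8 to 787.8) and 0.54 (784.5 to 1142.6) on a pair of MB probe sets built on 1 sequence record. On the first type it gave 0.011 (815.7 to 822.1), which turned negative after quantile normalization (-0.024) or removal of the trend (-0.0097). Itga3 and Itgav thus have no settled direction here. Itga5, the fibronectin receptor chain, read 1392.2 and 1444.4 (0.053, and -0.0041 with median ratio scaling), and Itga6, another laminin receptor chain, 926.1 and 775.3 (-0.26). Itgae, known from intraepithelial lymphocytes, read 739.7 and 637.1 (-0.22). Itga4 read 284.7 and 18.8 on the first type, where the first value barely exceeds the floor, and its MB probe sets read 81 and 201.8, and 38.5 and 57.4, all below it.

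All 3 measured integrin beta chains were lower. Itgb1, the partner of most matrix-binding alpha chains, read 8444.7 and 7546.7 (-0.16), and Itgb5, a partner of the alpha v chain, 2049.3 and 1728.3 (-0.25). Itgb7, a chain of leukocyte integrins, read 586.3 and 339.2 (-0.79, spread 0.49). The leukocyte chain Itgb2 (37.8 and 123.1) and the epithelial chain Itgb4 (103.8 and 63.8) were below the floor. Itgb1bp1, which encodes a cytoplasmic protein that binds the tail of the beta 1 chain, read 664.7 and 298.3, 2.23-fold lower (-1.16, spread 0.48). Its withdrawn value was only just above the floor of 281.5, and the difference was not counted with a floor 2 times as high.

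Part of the small downward shift of the bright members was shared by other bright probe sets. Among measured probe sets with a geometric mean intensity over 5000 on the MB type, 11 of 12 members were lower with a median of -0.35, and 66.5% of all 409 were lower with a median of -0.10. The 12 include all probe sets of Col1a2 and of Sparc, so some genes count more than once. The middle 50% of those 409 changes ran from -0.24 to 0.074. On the first type 4 of 6 such members were lower with a median of -0.11, close to the -0.12 of all 333. The beta-actin and Gapdh control probe sets changed by -0.21 to -0.38 for first-type arrays and by -0.022 to -0.23 for MB arrays. The first-type change of -0.36 for Col1a1 lies within the range of these controls and that of 0.33, on its other probe set, above it. On the MB type the changes of Col1a1, Col1a2, Sparc, Timp1 and Timp2 lie below that range. Between 1000 and 5000 the members' medians were -0.21 and -0.22, against 0.023 and 0.0050 for all probe sets. Under 1000, 8 of 11 first-type members were lower, with a median of -0.19 against -0.010 for all. On the MB type only 3 of 7 such members were lower, with a median of 0.13 against 0.087 for all. With the trend of change on level removed, the medians of all measured members were -0.16 for the first type and -0.22 for MB.

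**Figure D4:**
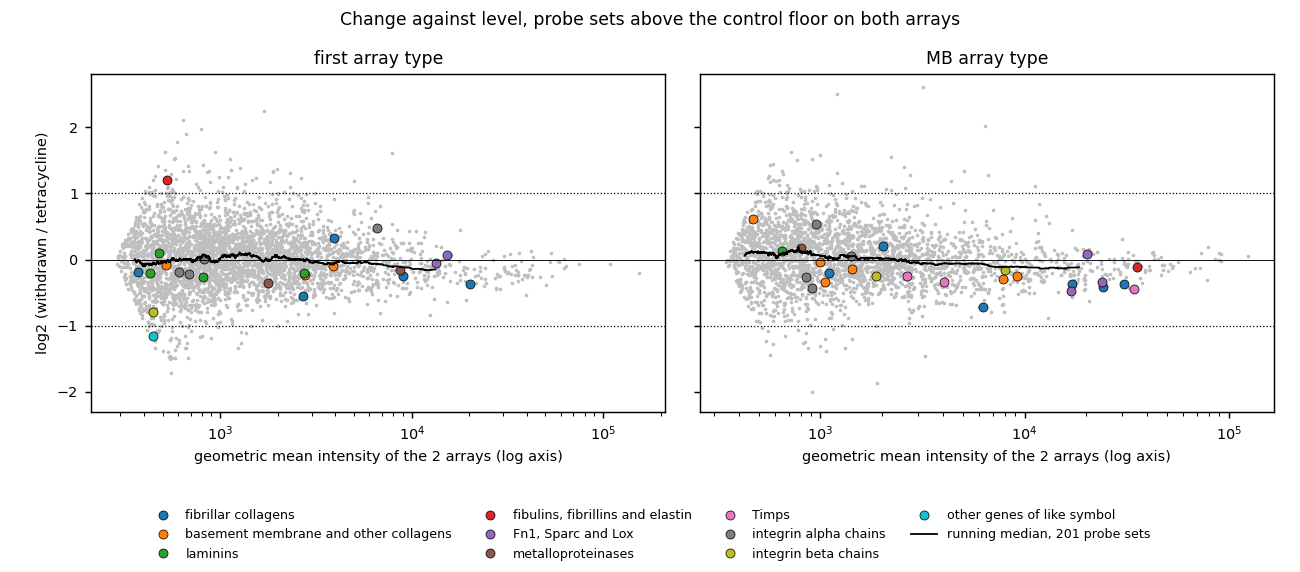
Log2 change against the geometric mean intensity (log axis) of probe sets measured on both arrays of a type, in grey, with members coloured by class, the running median in black and dotted lines at 2-fold. The running median slopes gently down, and on the MB type most of the bright members lie below it.

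Some genes were measured by several probe sets. Of 14 member genes with several probe sets, 7 had at least 2 measured. In 4 of these 7, Col1a2, Col5a1, Fn1 and Sparc, the measured probe sets had 1 direction, and in 3, Col1a1, Itga3 and Itgav, they had both. The range of the changes within a gene had a median of 0.36 and reached 0.97 for Itga3. That median was larger than the change of most measured members. The smallest range was that of Fn1, 0.017, between the array types. Whether both arrays of a condition were hybridised with the same RNA is not given.

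**Figure D5:**
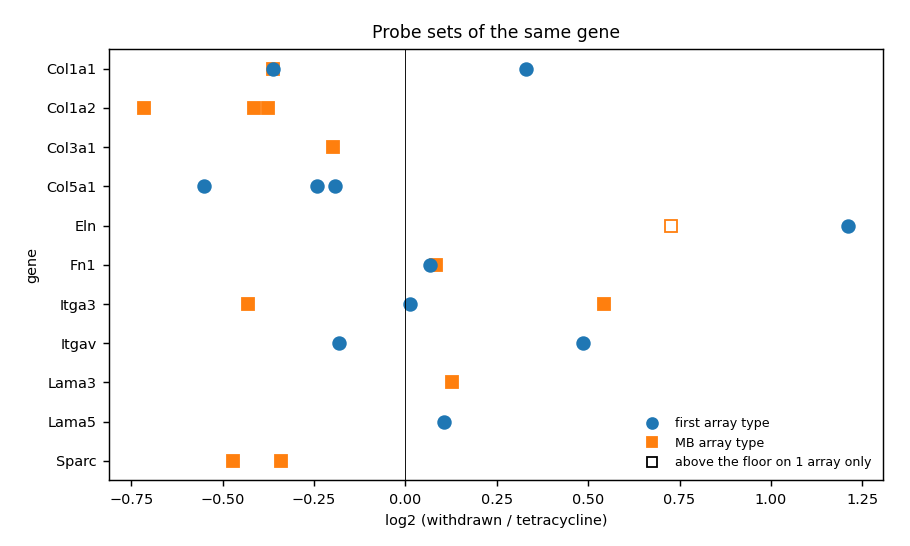
Log2 change of probe sets above the control floor on at least 1 array, for member genes with several probe sets of which at least 1 was measured. Circles stand for the first array type, squares for MB, and open symbols for probe sets above the floor on 1 array only. Col12a1, Fbln1 and Itga4, with no measured probe set, are not shown. Col1a2, Col5a1 and Sparc lie to the left of 0 throughout, Eln to the right, and Col1a1, Itga3 and Itgav on both sides.

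Genes that work with these proteins but lie outside the symbol rule were read from fixed lists, and those not past 2-fold that are named here were picked after their values were seen. Of 12 measured probe sets for collagen folding and crosslinking, 8 were lower and none passed 2-fold (medians -0.15 and -0.023 by array type), with Loxl1, a relative of lysyl oxidase, at 9037.9 and 5153.9 (-0.81). The collagen chaperone gene Serpinh1 read 12123.1 and 11419.4 on the first type (-0.086) and 13269.5 and 9310.7 on the MB type (-0.51). Bmp1, which encodes the protease that trims procollagen, was higher on both its MB probe sets (1077 to 2046.6, 0.93, and 1434.2 to 1869, 0.38). Proteoglycan and basement membrane genes were lower in 9 of 16 probe sets, none by 2-fold (medians -0.042 and 0.033). The perlecan gene Hspg2 read 1581.9 and 834.3 on the first type (-0.92) and 3623.2 and 2742.5 on an MB probe set (-0.40). Its other MB probe set was below the floor. Matricellular genes were lower in 5 of 10 and higher in 5, none by 2-fold (medians 0.051 and -0.038).

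In the list of the plasminogen system and other proteases, 13 of 20 probe sets were lower, and none was higher by 2-fold. The medians differed in sign between the array types, at -0.17 over 15 probe sets of the first type and 0.15 over 5 of the MB type. Past 2-fold lower were 2 of the 15, where 1.29% of all measured first-type probe sets were. The 2 were the membrane metalloprotease Adam15 (1132.4 to 405.5, -1.48) and Adamts1, which encodes a secreted protease that cuts proteoglycans (836 to 360.8, -1.21). Focal adhesion genes, which link integrins to actin, were higher in 13 of 19 probe sets with none past 2-fold and medians of 0.24 (first type) and 0.074 (MB). The kinase gene Src had the largest difference among them (399.7 to 793.7, 0.99).

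Most listed markers of fibroblasts, the cell type of the line, were above the floor. Of 26 probe sets for fibroblast markers, 24 were above the floor in both conditions, among them Vim (12981.7 and 11404.4), Thy1 (18329.2 and 16297.1) and Pdgfra (2711.4 and 2015.5). Lum (280.3 and 17.9) and Col3a1 on the first type (26.9 and 18.4) were below it. The summed intensity of the 26 fibroblast probe sets was 88525.2 with tetracycline and 73485.7 after withdrawal for first-type arrays, and 214379 and 173366 for MB arrays. Of the measured ones among the 26, 18 were lower and 6 higher. Many of the 26 belong to the members Col1a1, Col1a2, Col3a1, Col5a1, Col6a1, Fn1 and Sparc. These counts and sums thus partly repeat the member results. S100a4, which encodes a calcium-binding protein and is no member, read 16724.2 and 9318.4 (-0.84), the largest single difference in the first-type sum. Pdgfrb (1254 and 1781.9, 0.51) and Dcn (396.5 and 505.7, 0.35) were higher. Markers of other cell types were above the floor in 16 of 45 probe sets with tetracycline and 14 of 45 after withdrawal. Those measured on both arrays were 3 of 12 for leukocytes, 1 of 12 for lymphocytes, 0 of 6 for endothelium, 1 of 7 for epithelium (Krt8) and 4 of 8 for muscle (Ckm, Myog and Myod1). The leukocyte sums were 2527.9 and 2069 for first-type arrays, and 3530.3 and 3943.6 for MB arrays, most of the latter from Cd14 (3222.2 and 3425.7). The first-type leukocyte markers went both ways. Pan-leukocyte Ptprc read 710.1 and 363.9, and Cd52 fell from 877.6 to 110.8, below the floor. Lyz2 (432.7 and 562.8), Fcgr3 (240.8 and 505.6) and Coro1a (151.9 and 348.4) were higher, Fcgr3 and Coro1a from below the floor. Cd68 was below the floor on both arrays. The part of other cell types in the values of leukocyte integrin chains was not tested.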

How the data were processed

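RNA of 2 conditions was measured on 4 arrays of 2 types. Each deposited table gives a linear intensity for every probe set. How the authors computed these intensities is not given in the sources. The 2% trimmed means of the arrays were 999.9 and 1000.4 for the first type, 996.6 and 997.3 for MB, and the intensities were used without further scaling. Probe sets were named from a platform annotation, and all 89 members matched RefSeq (GRCm38.p6). The members, the floor and the lists were chosen with earlier results of these data known. Values are given for members past 2-fold or with a bound of 2-fold, genes with several probe sets of which at least 1 was measured, and the 2 largest changes per class and direction; other members were named after their values were seen. A value above the floor on 1 array only was set against the floor as a bound. Alternatives changed the scaling, the level trend, the floor, the fold limit, the unit and the member rule. Counting was tested on simulated data. Python 3.11.15, numpy 2.4.6, pandas 2.3.3 and statsmodels 0.14.6 were used.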

Additional observations from a re-analysis of the deposited data

How the results depend on the processing

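The median change of the members stayed negative under every alternative, between -0.14 and -0.20 on the first type and between -0.12 and -0.30 on the MB type. The counts past 2-fold followed the floor and the fold limit. On the first type, 1 member higher became 3 with the floor at the 25th percentile of all values, 7 without a floor, and 0 with a floor 2 times as high or a 3-fold limit. The 1 lower became 4 without a floor, 2 at 1.5-fold, and 0 with the floor 2 times as high, at 3-fold, or without Itgb1bp1. On the MB type, 0 higher became 2 with the floor at the 25th percentile, 5 without a floor and 1 at 1.5-fold, and 0 lower became 1, 3 and 1. Without a floor, 10.1% and 13.3% of all first-type probe sets and 15.4% and 12.3% of all MB probe sets were 2-fold higher and lower. With the floor at the 25th percentile, 29 first-type and 37 MB members were measured. The shares of all probe sets were then 4.36% and 4.02% for the first type and 8.46% and 6.65% for MB. Past 1.5-fold they were 8.86% and 6.67% for the first type and 8.80% and 5.19% for MB. With the floor 2 times as high, 16 first-type and 25 MB members were measured. The shares were then 1.10% and 0.266% for the first type and 0.993% and 0.366% for MB. Past 3-fold they were 0.225% and 0.0281% for the first type and 0.146% and 0.0730% for MB. The first-type median of basement membrane and other collagens was -0.050 with median ratio scaling and 0.28 without a floor, and that of laminins -0.27 without a floor. The MB integrin alpha median was 0.053 with the floor at the 25th percentile and without a floor. Of 390 values of 50 single members under alternatives, 389 counted as unchanged and 7, in 4 members, changed sign. Unchanged meant within the spread of the main value or, for Eln and Itgb1bp1, still past 2-fold. The floor and member rule leave a member's own change as it is, so many of the 389 could not have moved. Only the scaling and trend settings could move a value. A Col1a1 probe set on the first type was -0.13 with quantile normalization. The cause of these shifts was not tested. No paired analysis was possible because each condition has 1 array per type, and for the same reason no replicate could be left out.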
